A study of Rattus norvegicus with 6 samples.

Results

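The genes described here are 10 alpha and beta tubulins of the rat, measured in neural stem/progenitor cells (NSPCs) that were cultured on carbon films of 3 electrical conductivities. They were taken from the count tables by gene symbol, as Tuba1a, Tuba1b and Tuba1c for the alpha chains and Tubb2a, Tubb2b, Tubb3, Tubb4a, Tubb4b, Tubb5 and Tubb6 for the beta chains. They are 10 of the 16881 gene symbols and take 11 of the 17048 rows, because Tuba1c has 2 rows, which are called row 1 and row 2 in the order of the tables. The list was chosen by earlier results of these same libraries, in which the contrast of the "Low" and "Medium" films with the "High" film was known, so the values of that contrast below are a description and the tests are no independent evidence about the family.

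The cells were wild-type NSPCs of Sprague-Dawley rats, taken from the embryonic telencephalon, grown as neurospheres and used at low passage. They were kept for 24 h in a medium that maintains stemness, on films named High, Medium and Low in order of falling conductivity. The films were made from carbon nanotubes by oxidation for increasing times, and all were coated with poly-D-lysine, in amounts set for each film, and laminin. Each film had 2 libraries, 6 in all, and no label states that the libraries of a film came from separate cultures, so the p-values measure the spread between these libraries, which may be technical. No label gives a preparation batch, and a film cannot be told apart from the preparation of its libraries. In such bulk RNA, fewer cells of a type and less RNA per cell cannot be told apart.

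Total counts ran from 5124863 to 6213676 per library. Ribosomal RNA accounted for 26.1% and 38.4% of the total on High and for between 7.16% and 13.04% in the other 4 libraries, and their part in the tubulin results was not tested beyond the fit without these rows given below. The libraries of a film were far apart for many genes, since between 1408 and 2084 rows per film had 0 counts in one library and at least 50 in the other. Among markers of the labelled cell type, Sox2, Nes (nestin), Vim (vimentin) and Sox9 were present in all 6 libraries, while 3 of the 11 progenitor markers with a row, Msi1 among them, were at 0 throughout.

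Tubulins are the subunits of microtubules. One alpha and one beta chain form a dimer, and the dimers join head to tail into hollow filaments that separate chromosomes in dividing cells and fill the axons and dendrites of neurons. The isotypes of each chain are encoded by separate genes with nearly the same protein sequence and differ mostly in their acidic tails. In the developing brain Tuba1a is the main alpha tubulin of newborn neurons, and Tubb2a, Tubb2b, Tubb3 and Tubb4a are the beta tubulins enriched in neurons, whereas Tuba1b, Tuba1c, Tubb4b, Tubb5 and Tubb6 are made in many dividing and non-dividing cells. Tubb3 protein is the antigen of the Tuj1 antibody, widely used to stain neurons. The names "neuronal-enriched" and "general" are used for these groups below as textbook background, and radial glia and other progenitors also make Tuba1a and Tubb2b.

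The members share much of their sequence, and that bears on every value given here. The counts included reads with multiple alignments, so a read that fits several near-identical isotypes, or a processed pseudogene, may have been counted on several rows. The RefSeq gene list of the GRCr8 assembly holds 23 pseudogenes named after a member, 14 of them after Tuba1b, 5 after Tuba1a and 4 after Tubb4b. On that assembly Tuba1a, Tuba1b and Tuba1c lie together on chromosome 7, where the model of Tuba1c overlaps both of the others, and Tubb2a and Tubb2b lie together on chromosome 17. The other 5 members are each on a chromosome of their own. The counts were made on another assembly, rn6, so none of these positions belongs to a count.

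Among the members, Tuba1a and Tubb2b had the smallest p in the contrast with High. Tuba1b and Tubb5 were the most abundant general isotypes, and Tubb3 had counts on 1 film only. These 5 were picked by such values, which are given below, and their upstream sequences are shown. Each is the 250 bases before the transcript start in RefSeq (GRCr8), 5′ to 3′ on the strand of the gene, and capitals mark every match on either strand to a TATA box (searched as TATAA), to a CAAT box (searched as CCAAT) or to a GC box (searched as GGGCGG).
Tuba1a, chr7:131995820-131996069, minus strand: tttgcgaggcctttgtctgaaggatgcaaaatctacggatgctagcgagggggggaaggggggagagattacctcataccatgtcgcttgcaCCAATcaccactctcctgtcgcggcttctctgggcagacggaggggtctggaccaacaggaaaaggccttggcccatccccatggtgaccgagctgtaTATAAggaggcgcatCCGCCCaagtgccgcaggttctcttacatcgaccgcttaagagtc
Tuba1b, chr7:131972588-131972837, minus strand: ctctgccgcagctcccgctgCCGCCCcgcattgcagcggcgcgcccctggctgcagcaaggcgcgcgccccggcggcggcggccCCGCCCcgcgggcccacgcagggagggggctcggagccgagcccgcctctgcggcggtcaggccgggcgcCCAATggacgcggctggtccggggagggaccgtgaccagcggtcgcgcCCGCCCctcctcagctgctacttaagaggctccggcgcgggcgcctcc
Tubb2b, chr17:30952836-30953085, plus strand: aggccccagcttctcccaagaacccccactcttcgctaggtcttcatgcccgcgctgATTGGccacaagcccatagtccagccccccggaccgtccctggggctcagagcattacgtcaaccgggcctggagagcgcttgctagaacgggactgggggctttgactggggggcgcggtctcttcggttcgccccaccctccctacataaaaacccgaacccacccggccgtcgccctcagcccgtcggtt
Tubb3, chr19:68365437-68365686, plus strand: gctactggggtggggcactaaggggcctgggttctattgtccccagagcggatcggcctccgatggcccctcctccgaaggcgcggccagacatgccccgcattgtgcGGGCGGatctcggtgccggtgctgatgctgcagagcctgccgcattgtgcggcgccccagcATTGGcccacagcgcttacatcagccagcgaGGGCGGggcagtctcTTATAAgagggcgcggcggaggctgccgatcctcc
Tubb5, chr20:2917327-2917576, plus strand: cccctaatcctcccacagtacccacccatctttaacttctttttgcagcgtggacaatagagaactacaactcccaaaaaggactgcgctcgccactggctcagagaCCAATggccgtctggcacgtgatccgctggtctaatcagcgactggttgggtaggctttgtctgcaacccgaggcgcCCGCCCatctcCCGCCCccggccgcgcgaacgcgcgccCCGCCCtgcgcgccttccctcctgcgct

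All 10 members had an entry in the RefSeq promoter table. In windows of this length, TATAA on either strand was held by 24.0% of the 33469 promoters of the table, CCAAT by 34.0% and GGGCGG by 30.5%. TATAA was present upstream of Tuba1a, Tuba1c, Tubb2a, Tubb3 and Tubb4b, and in Tubb3 its match on one strand overlaps that on the other. The first base of the nearest match lay 60 bases before the start of Tuba1a and 34 bases before that of Tubb3. No TATAA was found in the windows of Tuba1b, Tubb2b, Tubb4a, Tubb5 and Tubb6. CCAAT was matched in 8 of the 10 windows, all but those of Tubb2a and Tubb4a, and GGGCGG also in 8, all but those of Tubb2b and Tubb4a. These matches are letters in a window and show neither binding nor a cause of any value below.

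The plot of tubulin levels gives every row in every library as CPM, the count scaled to a fixed library total after TMM normalization. The counts come from the 3′ ends of transcripts and are therefore not corrected for length. Averaged over the 6 libraries, the order of the levels was Tubb5 (2771 CPM), Tuba1b (1951), Tuba1a (1854), Tubb2b (970), Tubb4b (489), Tubb2a (486) and Tubb6 (418), followed at a distance by the 2 rows of Tuba1c (36.1 and 35.9), Tubb3 (4.33) and Tubb4a (0.869). Tubb4b, Tubb2a and Tubb6 lie so close in this order that their libraries overlap. The order changed with the film. On High, Tubb5 (2010 ± 157 CPM, SD, n = 2) and Tuba1b (1828 ± 390) led and Tuba1a (822 ± 92.7) was the next. On Medium, Tuba1a (2494 ± 303) stood second after Tubb5 (2893 ± 517) and above Tuba1b (1812 ± 399). On Low, Tuba1a (2245 ± 90.1) and Tuba1b (2212 ± 72.1) were level and did not differ beyond their spread.

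**Figure D1:**
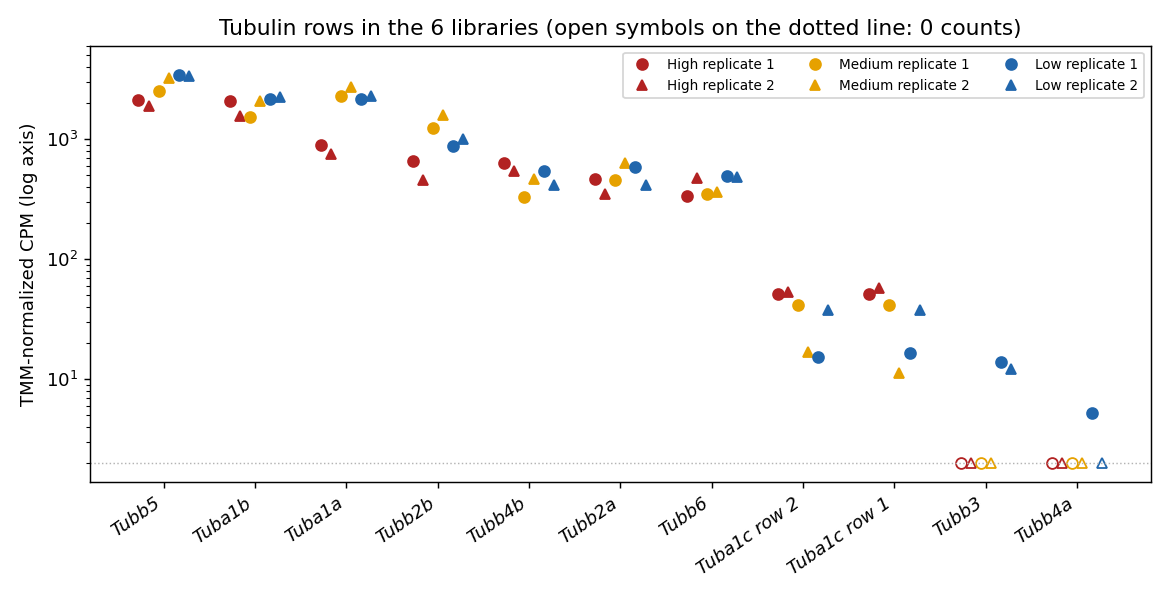
TMM-normalized CPM (log axis) of the 11 tubulin rows in each of the 6 libraries, ordered by mean level, with red for High, yellow for Medium and blue for Low, circles for replicate 1 and triangles for replicate 2. Open symbols on the dotted line are libraries with 0 counts. The 4 Medium and Low libraries lie above both High libraries for Tuba1a, Tubb2b and Tubb5.

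Of the alpha tubulins, Tuba1a differed most between films. It had 4309 and 3172 counts on High, 13281 and 16512 on Medium, and 15059 and 13757 on Low, which are 888 and 757, 2279 and 2708, and 2182 and 2309 CPM. All 4 libraries of Medium and Low were above both High libraries, and Medium and Low overlapped. Averaged over Low and Medium, its log2 fold change against High was 1.52 (SE 0.21, adjusted p = 0.0278 by edgeR's quasi-likelihood test), a level 2.88-fold higher. It was the row with the sixth smallest p and the 1 member among 10 rows called in this contrast, where 0.129% of the 7729 tested rows were called. In the fit without ribosomal RNA rows its log2 fold change was 1.52 again (adjusted p = 0.0347, edgeR).

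Tuba1b, the general alpha tubulin that lies next to Tuba1a and is nearly identical to it in protein, did not pass the test. Its CPM were 2104 and 1552 on High, 1530 and 2094 on Medium, and 2161 and 2263 on Low. High and Medium overlapped over almost their whole range, and Low was above both, by 0.28 (SE 0.25) against High and 0.29 (SE 0.25) against Medium on the log2 scale. Over Low and Medium the log2 fold change was 0.13 (SE 0.22, adjusted p = 0.9997, edgeR), and its sign turned when High replicate 2 or Medium replicate 2 was left out.

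Within a library the ratio of Tuba1a to Tuba1b counts depends on no scaling between libraries. It was 0.422 and 0.487 on High, 1.49 and 1.29 on Medium, and 1.01 and 1.02 on Low. The 3 films did not overlap, and the order was Medium, Low, High, which is not the order of conductivity. The range within a film was smaller than any gap between films. The ratio is a description, as the level of Tuba1a was among the values on which the list was chosen, and it was not tested.

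Tuba1c, a general alpha tubulin of low level here, had about the same counts on both of its rows. Row 1 had 249 and 239 counts on High, 243 and 68 on Medium, and 115 and 225 on Low, and row 2 had 251 and 225, 240 and 103, and 106 and 226. Both rows were lower in all 4 libraries of Medium and Low than in either High library after scaling, and Medium and Low each spread widely. The log2 fold changes of Low and Medium against High were -1.01 (SE 1.62) for row 1 and -0.92 (SE 1.60) for row 2, neither of which passed the test (adjusted p = 0.9997 for both, edgeR). As both rows carry 1 symbol and nearly the same counts, they are not separate evidence.

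Summed over the 3 alpha genes, the level was 3094 and 2420 CPM on High, 3893 and 4830 on Medium, and 4375 and 4648 on Low. The sum was higher in every Medium and Low library than in both High libraries, by 0.69 (SE 0.19) on the log2 scale, and it did not pass the test (adjusted p = 0.498, edgeR). A read counted on several of these rows enters the sum more than once.

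Of the neuronal-enriched beta tubulins, Tubb2b had the larger difference of the Tubb2 pair. Tubb2b is expressed in radial glia and migrating neurons of the developing cortex. Its CPM were 658 and 454 on High, 1246 and 1582 on Medium, and 885 and 997 on Low. All 3 films were apart, with Medium highest and High lowest, again not in the order of conductivity. The log2 fold change of Low and Medium against High was 1.05 (SE 0.25), and with an adjusted p = 0.353 (edgeR; unadjusted p = 0.00199) it did not pass. Without Low replicate 1 it was 1.09 (adjusted p = 0.0170) and without Low replicate 2 it was 1.01 (adjusted p = 0.0332), and it passed in both fits. It did not pass in the other 4, with 1.35 (adjusted p = 0.0846) without High replicate 1, 0.81 (adjusted p = 0.955) without High replicate 2, 1.13 (adjusted p = 0.0899) without Medium replicate 1 and 0.95 (adjusted p = 0.0844) without Medium replicate 2. Against High it was 1.35 (SE 0.28) for Medium and 0.76 (SE 0.28) for Low. Low against Medium was -0.59 (SE 0.28, adjusted p = 1, edgeR).

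Tubb2a, the neighbour of Tubb2b, overlapped between all films. It had 471 and 347 CPM on High, 459 and 639 on Medium, and 586 and 413 on Low, and its log2 fold change of Low and Medium against High was 0.36 (SE 0.31, adjusted p = 0.894, edgeR). The ratio of Tubb2b to Tubb2a counts was 1.40 and 1.31 on High, 2.71 and 2.47 on Medium, and 1.51 and 2.42 on Low. Medium stood above the other films in this ratio, and the Low libraries were far apart. The 2 genes summed gave a log2 fold change of 0.80 (SE 0.23, adjusted p = 0.538, edgeR).

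Tubb3, whose protein marks neurons, had counts in the Low libraries alone, 96 and 72, and 0 in each of the 4 High and Medium libraries. On Low this was 13.9 and 12.1 CPM, against 0 counts that allow up to 0.618 and 0.716 CPM on High and 0.515 and 0.492 CPM on Medium (3 counts, counting error only). Set against 3 counts in each library, Low was 19.5-fold higher than High and 25.8-fold higher than Medium. These folds are no firm minimum, because a 0 often stood beside at least 50 counts in the other library of a film (1408 to 2084 rows). The fitted difference was not called (adjusted p = 0.899 against High and 1 against Medium, edgeR). Even on Low the level of Tubb3 was under 1% of that of Tubb5. Tubb4a, the beta tubulin of mature neurons and oligodendrocytes, had 36 counts in Low replicate 1 and 0 in the other 5 libraries, and was too low to be tested. With 1 library above 0, no difference of Tubb4a between films can be read.

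Of the general beta tubulins, Tubb5, the most abundant member, was another row in which Medium and Low did not overlap High. Its CPM were 2120 and 1899 on High, 2528 and 3259 on Medium, and 3451 and 3368 on Low. Low was also above both Medium libraries, so that the level was ordered High, Medium, Low, the reverse of the order of conductivity. The log2 fold change of Low and Medium against High was 0.64 (SE 0.19) and did not pass the test (adjusted p = 0.573, edgeR; unadjusted p = 0.00673). That of Low against Medium was 0.24 (SE 0.21), about its standard error.

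Tubb4b, a general isotype that is also the main beta tubulin of cilia, was the abundant member with a fitted difference below 0 over Low and Medium. It had 629 and 541 CPM on High, 331 and 470 on Medium, and 545 and 415 on Low. Medium was below High, and Low overlapped it. The log2 fold change of Low and Medium against High was -0.42 (SE 0.28, adjusted p = 0.803, edgeR). Tubb6, a general isotype of low level in brain, had 339 and 478 CPM on High, 353 and 362 on Medium, and 496 and 481 on Low. Low was above both other films, by 0.26 (SE 0.33) against High on the log2 scale, and over Low and Medium its log2 fold change was 0.03 (SE 0.29), with a sign that turned under 3 alternatives.

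Expressed as shares of the summed tubulin counts of a library, the isotypes showed the differences between films without any scaling. The summed counts themselves were 25731 to 35492 on High and 51324 to 71491 in the other libraries, or 0.475% to 0.648% of all counts on High and 1.001% to 1.15% elsewhere. With ribosomal RNA rows left out of the total these shares were 0.771% to 0.877% and 1.08% to 1.32%. Thus High was lower either way, and the gap was narrower without ribosomal RNA. All 10 genes summed gave a log2 fold change of 0.60 (SE 0.17, adjusted p = 0.538, edgeR) for Low and Medium against High.

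The 5 neuronal-enriched genes took 27.6% (95% Wilson interval 27.1 to 28.1) and 25.4% (24.8 to 25.9) of the tubulin counts on High. They took 45.2% (44.8 to 45.7) and 44.2% (43.9 to 44.6) on Medium, and 35.5% (35.1 to 35.8) and 36.1% (35.7 to 36.5) on Low. The intervals cover counting error only and take the counts as independent. Reads counted on several rows, and libraries without described molecular identifiers, may make them too narrow. On High and on Medium the libraries of the film differed by more than these intervals. No 2 films overlapped, and Medium was highest. The mean share over Low and Medium exceeded that of High by 13.8 percentage points, with an SD of 1.02 within films. Without Tuba1a the difference was 5.87 points, from shares of 17.6% and 14.9% on High, 26.1% and 26.3% on Medium, and 18.2% and 17.7% on Low. Medium then stood apart and Low was above High by little. Among beta tubulins alone it was 5.79 points, again from Medium (mean 34.9%), since Low (24.96%) was close to High (24.2%).

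Tuba1a alone went from 12.1% and 12.3% of the tubulin counts on High to 25.9% and 24.3% on Medium and 21.1% and 22.3% on Low. Tuba1b went the other way, from 28.8% and 25.3% on High to 17.4% and 18.8% on Medium and 20.9% and 21.9% on Low. The alpha chains together held 42.3% and 39.4% on High, 44.2% and 43.4% on Medium, and 42.2% and 44.98% on Low. Both Medium libraries were above both High libraries in it, and Low overlapped the other films. Tubb5 held 28.7% to 33.3% in the 6 libraries. A share can fall because other members rise, so a lower share of Tuba1b does not mean a lower level.

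**Figure D2:**
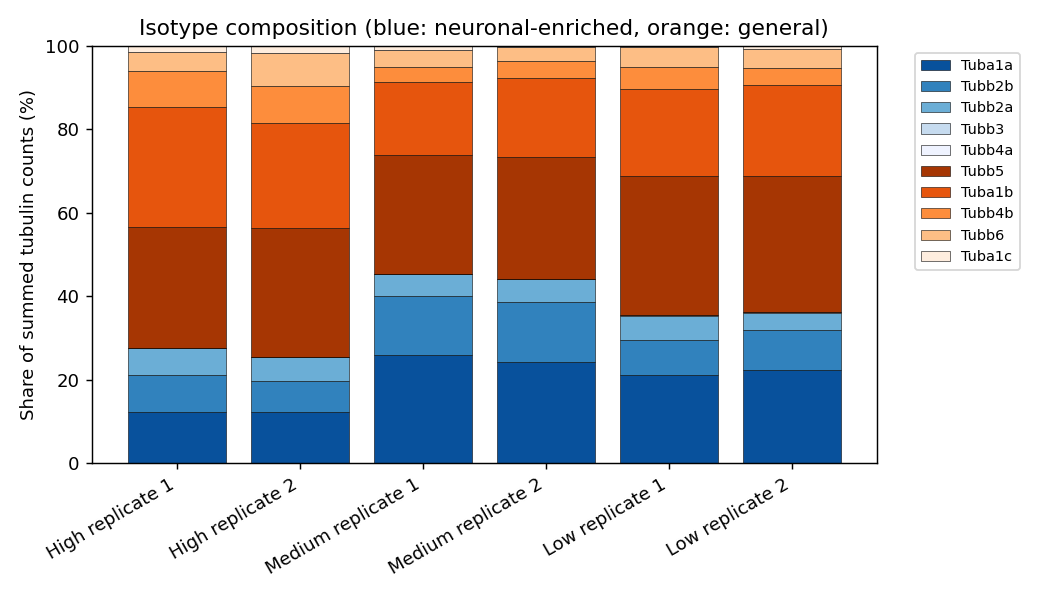
Share (%) of each tubulin gene in the summed tubulin counts of each of the 6 libraries, with neuronal-enriched isotypes in blue at the base and general isotypes in orange above. The blue part reaches 27.6% and 25.4% on High, 45.2% and 44.2% on Medium and 35.5% and 36.1% on Low, and most of its change is in Tuba1a.

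Among the beta tubulins the mixture differed by film as well. The ratio of Tubb2b to Tubb5 counts was 0.311 and 0.239 on High, 0.493 and 0.485 on Medium, and 0.256 and 0.296 on Low, so Medium stood apart and High and Low overlapped. The ratio of Tubb4b to Tubb5 was 0.297 and 0.285 on High, 0.131 and 0.144 on Medium, and 0.158 and 0.123 on Low, so here High stood apart and Medium and Low overlapped. The neuronal-enriched genes made up 26.8% and 21.5% of the beta counts on High, 34.7% and 35.2% on Medium, and 24.9% and 25.0% on Low, where Low lay within the range of High. Tubb2b on Medium thus carried most of the difference within the beta chains, and among alpha chains the share of Tuba1a was 28.7% and 31.3% on High, 58.6% and 56.1% on Medium, and 49.9% and 49.7% on Low.

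**Figure D3:**
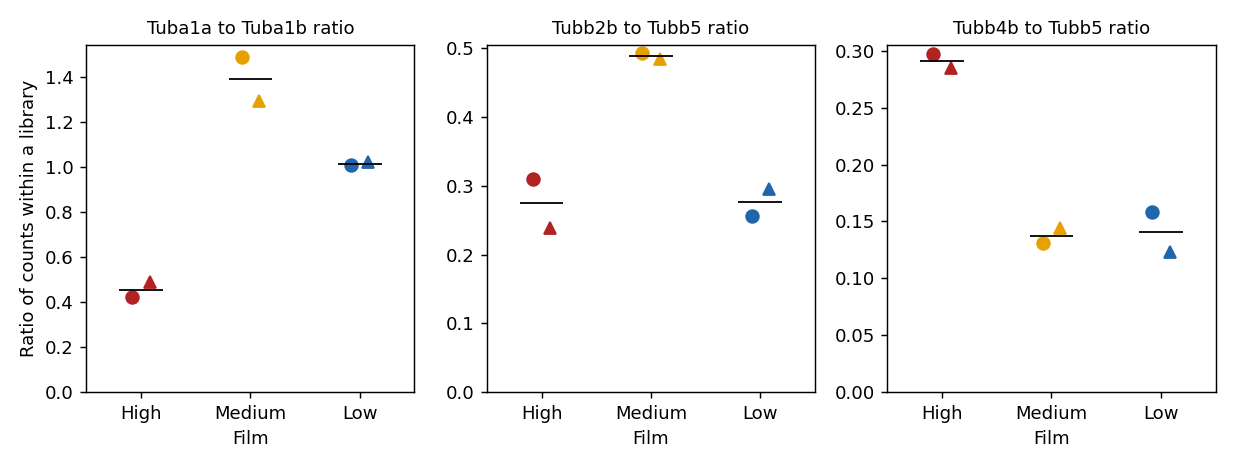
Ratio of counts within a library for Tuba1a to Tuba1b, Tubb2b to Tubb5 and Tubb4b to Tubb5, by film, with circles for replicate 1, triangles for replicate 2 and a line at the mean of the 2 libraries. The first ratio separates all 3 films (means 0.455, 1.39 and 1.01), the second sets Medium apart and the third sets High apart.

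Taking each film against High, 6 of the 10 tested rows were higher in both Low libraries than in both High libraries (Tuba1a, Tuba1b, Tubb2b, Tubb3, Tubb5 and Tubb6), where 19.4% of all tested rows were, and 2 were lower (the rows of Tuba1c), where 18.0% were. For Medium, 3 rows were higher (Tuba1a, Tubb2b and Tubb5; 16.2% of all tested rows) and 3 lower (both rows of Tuba1c, and Tubb4b; 18.6%). Against both films together 3 were higher (Tuba1a, Tubb2b and Tubb5; 8.06%) and 2 lower (the rows of Tuba1c; 10.1%). Tubb3 had 0 counts on High and Medium and passed the filter through its Low counts alone, so its place above High was fixed beforehand. Because the contrasts share the High libraries, they do not repeat each other. The share of all rows is the background for these counts, from which nothing particular to tubulins is read.

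By edgeR's quasi-likelihood test with adjustment over 7729 rows, 0 members were called in Low against High, where 0.0518% of rows were, and 0 in Medium against High, where 0.0129% were. At an unadjusted p under 0.05, Tuba1a, Tubb2b and Tubb5 were higher in each, 3 of 10 rows, beside 2.56% of all rows for Low and 2.39% for Medium. In Low and Medium against High the same 3 members were higher at that level, beside 2.69% of all rows. Tuba1a had a log2 fold change of 1.45 (SE 0.22, adjusted p = 0.0937) for Low and 1.60 (SE 0.23, adjusted p = 0.131) for Medium, and Tubb5 one of 0.76 (SE 0.21) for Low and 0.53 (SE 0.21) for Medium. DESeq2 called Tuba1a, Tubb2b and Tubb5 for Low, where it called 3.88% of all rows, and Tuba1a and Tubb2b for Medium, where it called 3.97%. limma-voom called Tuba1a and Tubb5 for Low (0.207% of all rows) and Tuba1a for Medium (0.181%). Over Low and Medium against High, DESeq2 called these 3 genes and 4.85% of all rows, and limma-voom Tuba1a and Tubb5 and 0.298%. In edgeR fits without 1 library, 1 member (Tuba1a) was called for Low when High replicate 1 or any 1 Medium or Low library was left out, and 0 without High replicate 2. For Medium Tuba1a was called in each such fit, and Tubb2b also without High replicate 1, Low replicate 1 or Low replicate 2. Over all rows these fits called 19 to 65 for Low and 11 to 275 for Medium, the highest without Low replicate 2 and without Medium replicate 2.

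**Figure D4:**
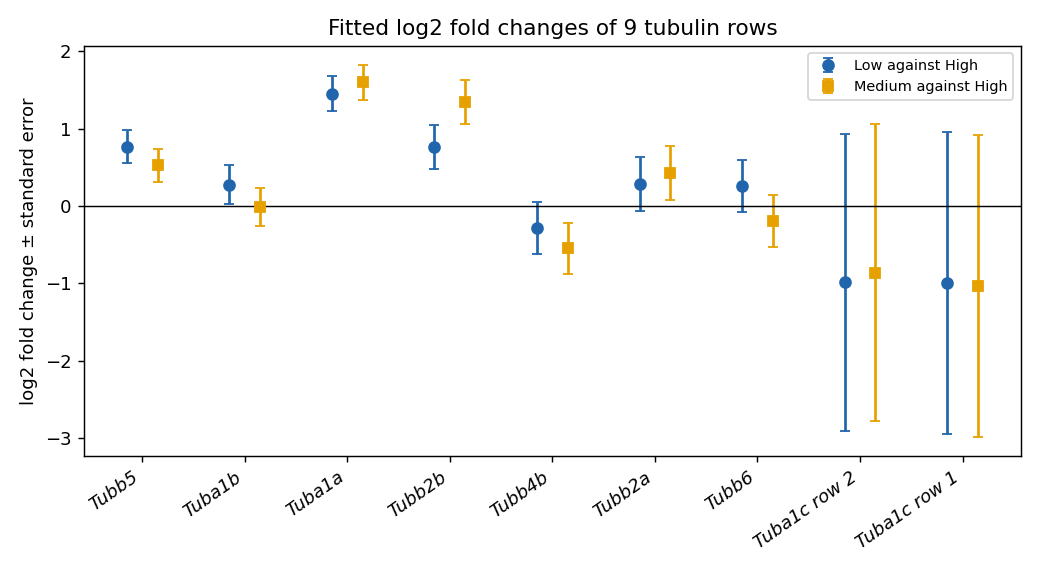
Fitted log2 fold change (edgeR) of 9 tubulin rows for Low against High (blue circles) and Medium against High (yellow squares), with bars of 1 standard error. Tubb3 and Tubb4a, at 0 on High and Medium, are not drawn. Tuba1a lies at 1.45 and 1.60, Tubb2b at 0.76 and 1.35, and the bars of Tuba1c span 0.

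Low and Medium were compared directly as the 2 films of lower conductivity. Low was above Medium in Tuba1b, Tubb3, Tubb5 and Tubb6, 4 of 10 rows beside 16.3% of all tested rows, and below it in Tubb2b, 1 row beside 12.6%. None of these passed, as 0% of the 7729 rows were called by edgeR, and at an unadjusted p under 0.05 the count of members was 0 too, as it was for adjusted calls by DESeq2, which called 1.50% of all rows, and by limma-voom, which called 0%. Tubb3 passed the filter only through its Low counts, so its place above Medium was fixed beforehand. The difference of Tuba1a was -0.15 (SE 0.22), within its error, so its level could not be told apart between these films.

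The median log2 fold change of the 10 tested rows was 0.24 for Low and Medium against High, with 7 above 0 and 3 below, beside a median of -0.12 over all 7729 rows, of which 3548 were above 0. For Low against High it was 0.28 beside 0.02. For Medium against High it was -0.01 over the 9 rows other than Tubb3, with 4 above 0 and 5 below, beside -0.06. For Low against Medium it was 0.14 beside 0.07. With Tubb3 at its floor the medians of the 10 rows were the same in the contrasts that include Low. As Tubb3 passed the filter only through Low, it could not lie below 0 in any contrast of Low with the other films.

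The plot of the 3 leading members under each setting shows how the calls depend on the fit. Tuba1a was called in all 17 alternatives, with log2 fold changes of Low and Medium against High between 1.41 and 1.91. Tubb2b was called in 5 of them, with values between 0.81 and 1.43, and Tubb5 in 2, with values between 0.53 and 1.03. All 3 kept their direction under these alternatives.

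**Figure D5:**
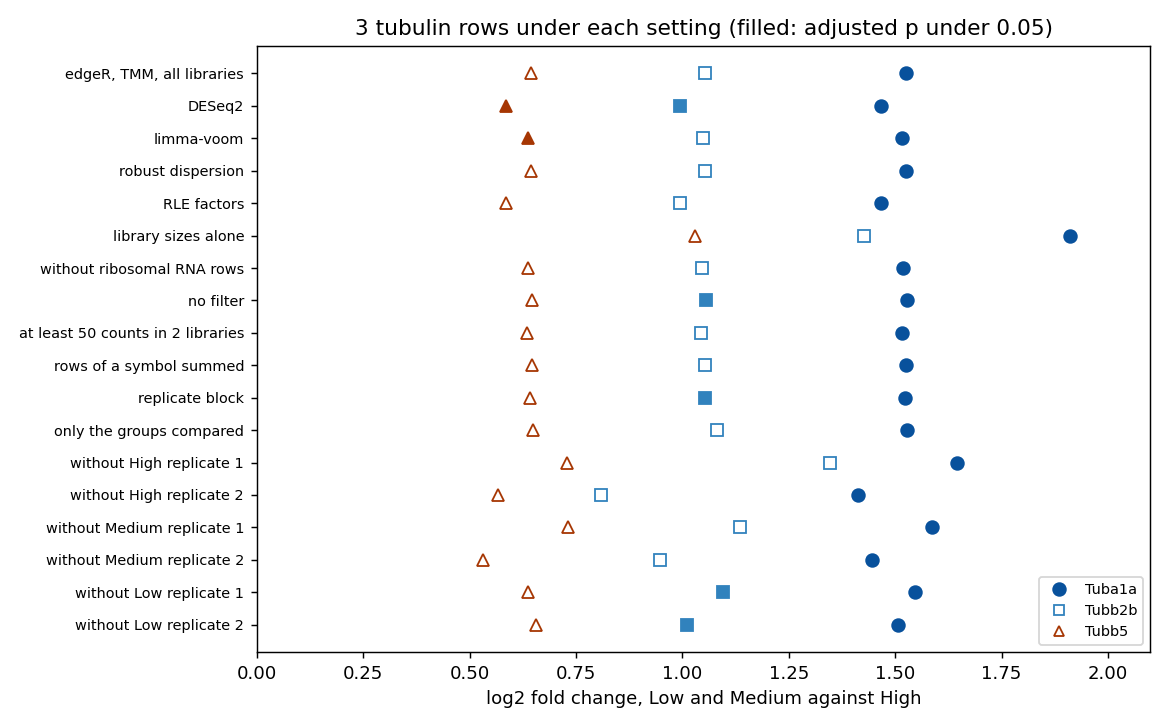
log2 fold change of Tuba1a (circles), Tubb2b (squares) and Tubb5 (triangles) for Low and Medium against High under the fit used in the text (top) and each of 17 alternatives. Filled symbols have an adjusted p under 0.05. Tuba1a is filled in every line, and the values of the 3 genes keep their order.

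The remaining tubulin genes were sparse in these cells. Of the 9 with a row, Tuba3a, Tuba3b, Tuba8 and Tubal3 were at 0 in every library, and Tubg2 had counts in 1 library alone. Of the 4 that were tested, 1 had a positive and 3 a negative log2 fold change for Low and Medium against High, with a median of -1.33, and 0 were called or had an unadjusted p under 0.05 (edgeR). Tubd1, the delta tubulin of centrioles, had 195 and 119 counts on High, 145 and 0 on Medium, and 0 on Low. Tubg1, the gamma tubulin that nucleates microtubules, had 283 and 281, 0 and 119, and 93 and 405. Tuba4a, another alpha tubulin, had 337 and 113, 1 and 211, and 229 and 199. For Tubg1 and Tuba4a the libraries of a film differed by as much as the films did, whereas for Tubd1 both High libraries were above both Low libraries.

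New tubulin chains are folded by prefoldin and the CCT chaperonin and assembled into dimers by the cofactors Tbca to Tbce. Of 18 tested genes of this pathway 11 were higher and 7 lower in Low and Medium against High, with a median log2 fold change of 0.05 beside -0.12 over all rows, and 0 were called after adjustment (edgeR). At an unadjusted p under 0.05, 1 was higher (Tbcd) and 1 lower (Pfdn1), beside 2.69% and 2.81% of all rows. Tbcd, the cofactor that binds beta tubulin, had 0 counts in both High libraries, 665 and 190 on Medium, and 215 and 286 on Low (adjusted p = 0.531, edgeR). It passed the filter through Medium and Low alone, so it could only count among the higher genes. The prefoldin subunit Pfdn1 had 1262 and 845 on High, 128 and 493 on Medium, and 884 and 1038 on Low, a log2 fold change of -1.39 (SE 0.60, adjusted p = 0.801, edgeR). That of Pfdn2, another subunit, was -0.51 (SE 0.26). The summed level of the pathway, 5842 to 6674 CPM over the 6 libraries, overlapped between the films.

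Of 8 tested genes that modify tubulin or control its mRNA, 4 were higher and 4 lower in the same contrast, and 0 were called or reached an unadjusted p of 0.05 (edgeR). The 3 with the smallest p were Svbp (26 and 264 counts on High, 0 and 192 on Medium, 3 and 18 on Low), a partner of the vasohibins that remove the terminal tyrosine, Ttc5 (78 and 1, 0 and 8, 0 and 27), which binds nascent tubulin chains and starts the decay of their mRNA, and Atat1 (13 and 24, 575 and 72, 33 and 3), the alpha tubulin acetyltransferase. In each of them the libraries of at least 1 film were far apart, and the median of the 8 was 0.07. Of 12 tested genes that bind, sever or nucleate microtubules 4 were higher and 8 lower, with a median of -0.33, again with 0 called and 0 at an unadjusted p under 0.05. Nedd1, which brings gamma tubulin to the centrosome, had 55 and 180 counts on High, 0 on Medium, and 308 and 0 on Low. Tubgcp5, a subunit of the gamma tubulin ring, had 0 on High, 0 and 45 on Medium, and 191 and 119 on Low. Katnal1, a severing enzyme, had 0 on High, 323 and 0 on Medium, and 12 and 0 on Low. Tubgcp5 and Katnal1 passed the filter through Medium and Low alone, so they could only count among the higher genes.

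Markers of cell types were set beside the tubulins, since several members are enriched in neurons. Of 15 neuron markers other than tubulins, Rbfox3, Syt1 and Nefl were at 0 in every library. In Low and Medium against High, 6 were tested and 0 were called or had an unadjusted p under 0.05 (edgeR). Higher were 5 of 6, beside 3548 of all 7729 tested rows. Of these 5, Ina and Map2 had 0 counts on High and passed the filter through the other films, so their direction was fixed beforehand. The 15 markers summed to 55.3 to 167 CPM on High, 180 to 361 on Medium and 189 to 352 on Low. Dcx, the doublecortin of migrating neurons, had 85 counts in Low replicate 2 and at most 1 elsewhere. Other markers of the list were present, as Gap43, a growth cone protein, had 277 and 77 counts on High, 157 and 889 on Medium, and 1157 and 658 on Low, Elavl4, a neuronal RNA-binding protein, had 230 and 54, 615 and 751, and 811 and 233, and Syn1 had 68 and 0, 278 and 269, and 272 and 0. In the other direction Stmn3 had 75 and 48 counts on High, 0 and 29 on Medium, and 54 and 0 on Low. Stmn2 and Elavl3 had counts in High replicate 1 alone (60 and 100), and Snap25 in High replicate 2 alone (52). Ina, Map2, Nefm and Sncb had counts on Medium or Low alone. The summed list was higher in all Medium and Low libraries than in both High libraries, as Tuba1a was. Its margin was small for the lowest Medium and Low libraries (180 and 189 against at most 167 CPM on High). The part of this list in the difference of Tuba1a was not tested.

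Progenitor markers were not called either. Of 8 tested, 4 were higher at an unadjusted p under 0.05 in Low and Medium against High (edgeR), a level passed upward by 2.69% of all rows, and 0 after adjustment, with a median log2 fold change of 0.91 over the 8. The 4 were Sox2, a transcription factor of neural stem cells, with a log2 fold change of 1.24 (SE 0.27, adjusted p = 0.212), Nes, an intermediate filament of the same cells, with 1.64 (SE 0.43, adjusted p = 0.468), Sox9 with 0.97 (SE 0.27) and Vim with 0.58 (SE 0.20). In the other direction Hes1, a target of Notch signalling, had -0.82 (SE 1.31) and Fabp7, a fatty acid binding protein of radial glia, -0.60 (SE 0.55), with -1.42 (SE 0.66) for Low alone. The whole list summed to 3313 and 3599 CPM on High, 5680 and 5703 on Medium, and 4769 and 6504 on Low, with no overlap of High with the others. Of the oligodendrocyte lineage list, 5 tested and 1 higher at an unadjusted p under 0.05, the sum was 351 to 439 CPM on High and 605 to 838 elsewhere. Its part and that of the progenitor markers in the tubulin values was not tested.

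The other lists gave no such separation. Neuronal progenitor markers summed to 574 to 712 CPM on High, 429 to 665 on Medium and 517 to 918 on Low, and astrocyte markers to 141 to 157, 146 to 204 and 129 to 220. Microglia markers were at 0 for 6 of 8 genes and reached at most 7.10 CPM in sum. Meningeal and vascular markers were at 0 for 6 of 10 genes and summed to at most 35.8 CPM except in Medium replicate 2, where Col1a1 had 2005 counts and the sum was 401 CPM. Without that library the log2 fold change of Tuba1a over Low and Medium was 1.45, that of Tubb2b 0.95 and that of Tubb5 0.53.

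Of the 4306 tested rows with a mean log2 CPM of at least 5, the 5 whose level was most like that of Tubb5 over the 6 libraries, by Pearson's r of log2 CPM, were Rfk (0.997), a flavin kinase, RGD1566320 (0.979), Dnph1 (0.974), Fcf1 (0.970), a factor of ribosome assembly, and Zfp386 (0.969). The member rows were left out of this search, so none of them could appear. With 6 libraries and this many rows high correlations arise in number, and they are given as a description.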

How the data were processed

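RNA of NSPCs on High, Medium and Low films was measured in 6 libraries, 2 per film, mapped to films by their titles. The authors made QuantSeq 3′ libraries, aligned them with Bowtie2 and used Bedtools coverage to count reads per gene, those with multiple alignments included. The authors deposited whole-number counts, 1 table per library, before TMM and CPM normalization. The genome build is rn6 in the submitters' processing notes, and the annotation and the strand setting are not given in the sources used here. No molecular identifiers were described, so counts are not independent molecules. The labels name Trizol for RNA isolation and the methods another kit.

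The 10 members and all gene lists were chosen with earlier results of these data known. The tables hold 17048 rows, and 0 further per-sample columns. Rows were filtered with filterByExpr (7729 left, 10 of 11 member rows), scaled by TMM and fitted over all 6 libraries with the quasi-likelihood test of edgeR, with Benjamini-Hochberg adjustment over all rows and a threshold of 0.05 (R 4.3.3, edgeR 4.0.16, limma 3.58.1, DESeq2 1.42.0). The common dispersion was 2.04. Each SE was computed as the absolute log2 fold change over the square root of the F statistic of its test. The contrasts were Low, Medium and their mean against High, and Low against Medium. Exact two-sided permutation tests could not go below p = 0.133 with 4 against 2 libraries, or 0.333 with 2 against 2. A group at 0 was set to a floor of 3 counts per library for folds. Isotype shares and ratios were taken from raw counts. The scripts were tested on simulated data of smaller dispersion than these, which does not show how the fit behaves at this spread.

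Named were all members, members of each list past the adjusted threshold (0 in each list), up to 3 genes with the smallest unadjusted p in each of the 4 tubulin lists, and the 5 rows nearest to the most abundant member. Cell type markers, and genes at 0 or with counts in 1 library, were named after their values were seen. The alternatives were DESeq2, limma-voom, a robust dispersion, other scaling factors, other filters, rows left out or summed, a replicate block, fits of the compared films alone, and leaving out each library.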

Additional observations from a re-analysis of the deposited data

How the results depend on the processing

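In Low and Medium against High, where 1 member row was called (Tuba1a), DESeq2 called 3, limma-voom 2, the fit with no filter on low counts 2 and the fit with the replicate block 2, and leaving out 1 library gave 1 to 2. Tuba1a was among them each time. In Low against High, with 0 called, DESeq2 called 3, limma-voom 2, and the robust dispersion, no filter and the replicate block 1 each, and leaving out 1 library gave 0 to 1. In Medium against High, with 0 called, DESeq2 called 2, limma-voom 1, the robust dispersion 1, no filter 2 and the replicate block 2, and leaving out 1 library gave 1 to 2. Low against Medium had 0 members throughout. The cause of these differences was not tested. Over all rows, 4 were called in Low against High and 1 in Medium against High, and 300 and 307 by DESeq2, 16 and 14 by limma-voom, 5 and 3 with the robust dispersion, 34 and 48 with no filter, 30 and 39 with the block, and 19 to 65 and 11 to 275 without 1 library. In Low against Medium, 0 rows were called, and 116 by DESeq2, 5 with no filter and 0 to 194 without 1 library, the highest without Medium replicate 2. Likewise 10 were called in Low and Medium against High (3 higher, 7 lower), and 375 by DESeq2, 23 by limma-voom, 19 with the robust dispersion, 68 with no filter, 57 with the block and between 34 and 242 without 1 library, the highest without Medium replicate 2. Scaling by library size alone moved the median of all rows from -0.12 to 0.26, and 14 rows were called (8 higher, 6 lower), while the RLE factors gave 10 (2 higher, 8 lower).

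Tubb2b passed under DESeq2, no filter, the replicate block (adjusted p = 0.0453, edgeR) and without Low replicate 1 or Low replicate 2, and Tubb5 under DESeq2 and limma-voom. Tuba1b changed sign without 1 library, with log2 fold changes from -0.072 to 0.369, the lowest without High replicate 2 (-0.0721) and another below 0 without Medium replicate 2 (-0.0054). Tubb6 gave -0.0305 under DESeq2, -0.0308 with the RLE factors and -0.193 to 0.301 without 1 library, the lowest without High replicate 1. Tuba1a, both rows of Tuba1c, Tubb2a, Tubb2b, Tubb4b and Tubb5 kept their direction under the 17 alternatives. Tubb4a was filtered out of the fit used in the text and was not followed in the alternatives. The difference of 13.8 percentage points in the neuronal-enriched share was 12.7 to 14.9 without 1 library, 5.87 without Tuba1a and 5.79 among beta tubulins alone.

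The deviations of the libraries from their film means correlated between films at 0.00, 0.00 and 0.01. With so few and widely spread libraries, this cannot decide whether libraries of the same replicate number were prepared together. Sequences shared between isotypes, 2 libraries per film and a wide spread between them limit these values, and for Tubb3, Tubb4a and Tuba1c the low counts do.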
